A study of Homo sapiens with 6 samples.

Results

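The genes described here carry out calcium release from the endoplasmic reticulum and the refilling of that store. They are the 3 inositol 1,4,5-trisphosphate (IP3) receptor genes *ITPR1*, *ITPR2* and *ITPR3*, the store sensors *STIM1* and *STIM2*, the entry channels *ORAI1*, *ORAI2* and *ORAI3*, and the refill pumps *ATP2A2* and *ATP2A3*. They were found by their gene names among the 60655 genes of the count table, where all 10 are listed. The set was chosen by the measured difference between the IGF2BP3 IP and the IgG IP, which had already been seen, so the differences given below between these IPs are a description and are no evidence about the set.

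IP3 receptors are channels in the membrane of the endoplasmic reticulum that open when IP3 binds and let stored calcium into the cytoplasm. STIM proteins sense the falling calcium inside the store and open ORAI channels in the plasma membrane, through which calcium enters the cell. Pumps of the sarco-endoplasmic reticulum calcium ATPase (SERCA) family, encoded by ATP2A genes, then return calcium to the store. IGF2BP3 is an RNA-binding protein that attaches to many mRNAs, and the question put to these data is which RNAs come down with it.

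The cells were WaGa, an established line of Merkel cell carcinoma (MCC) that is positive for Merkel cell polyomavirus, with genotype WT and no treatment in all libraries. RNA immunoprecipitation sequencing (RIP-seq) was performed with an IGF2BP3 antibody, called IMP3 in the sample names, or with IgG as the negative control. Each group had 3 libraries, numbered 1 to 3. All libraries came from 1 cell line, and the labels do not say whether they came from separate cultures, so p-values measure only the spread between these libraries.

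Library totals were between 9758759 and 14886414 counts. The replicate 1 libraries stood apart in both groups, with a chi-square per degree of freedom of 18.2 to 21.9 against the other libraries of their group and of 2.2 and 3.25 between replicates 2 and 3. All 10 MCC markers were detected in every library, and their summed level was 5120 to 5440 normalized CPM in the IgG IP and 5130 to 5380 in the IGF2BP3 IP. The 12 markers of keratinocytes, fibroblasts, leukocytes and melanocytes summed to at most 1.95 CPM in any library, with 6 of them at 0 throughout and all 3 leukocyte markers among these. CPM are a library's read counts after scaling to its TMM-normalized size, with no correction for transcript length.

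Of the 14507 RNAs tested with edgeR's quasi-likelihood test, 1.16% were called higher in the IGF2BP3 IP (fold change of at least 1.5 and Benjamini-Hochberg adjusted p under 0.05) and 0% lower. Of the 10 genes, 8 were tested and 0 were called. *ORAI3* and *ATP2A3* were below the expression filter. At an unadjusted p under 0.05, reached by 12.8% of all tested RNAs, 2 of the 8 were found, *ITPR3* and *STIM1*. For this pair of genes the lowest IGF2BP3 IP library exceeded the highest IgG IP library, as it did for 12% of the tested RNAs. All 3 IGF2BP3 IP libraries were below all 3 of the IgG IP for 8.69% of the tested RNAs and for 0 of the 8 genes. DESeq2, the tool of the study, called 1 of the 8, *ITPR3*, where 2.22% of the RNAs with an adjusted p were called higher. When edgeR was given the replicate as a block, the share called higher was 3.56% and again 1 of the 8 was called, *ITPR3*. Without the fold change minimum that fit had adjusted p-values under 0.05 for 16.2% of RNAs and for 3 of the 8, *ITPR3*, *STIM1* and *ATP2A2*. The median log2 fold change over the 8 genes was 0.21, beside -0.01 over all tested RNAs.

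**Figure D1:**
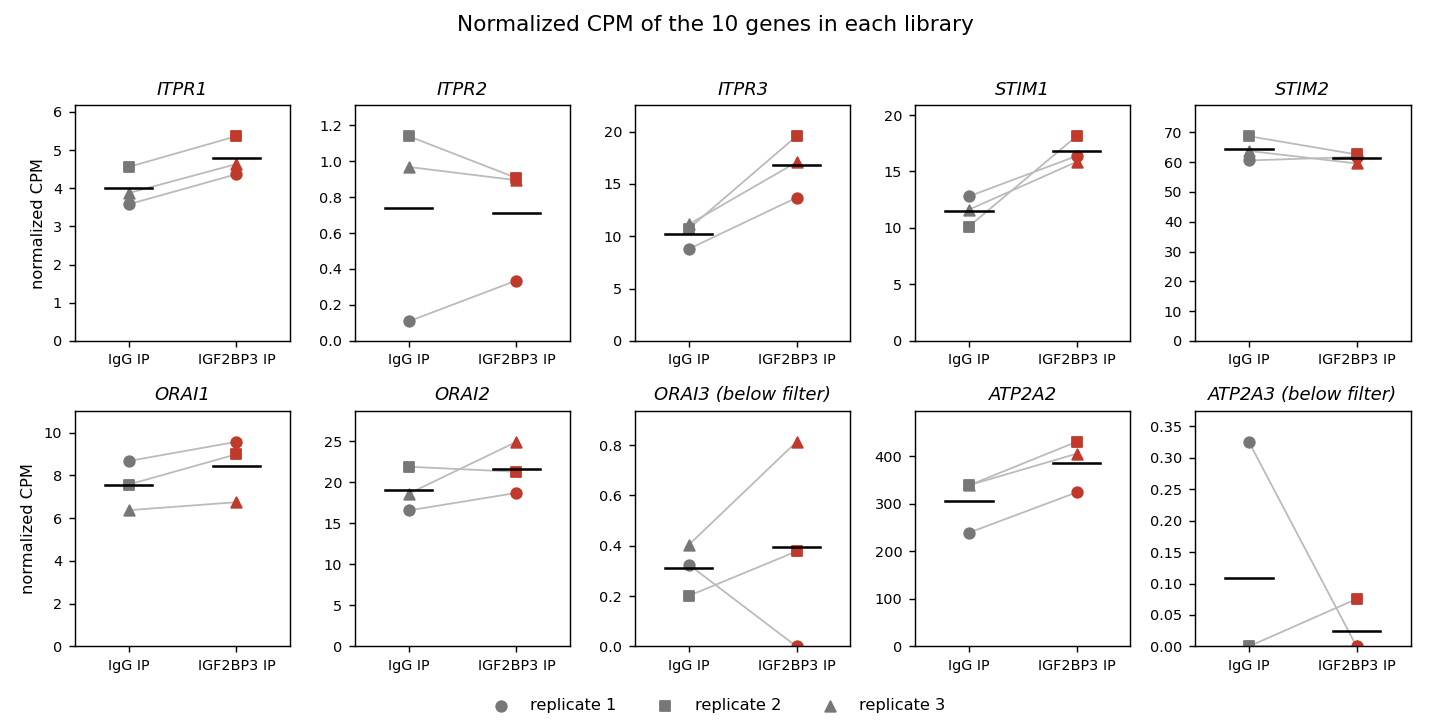
Normalized CPM of each gene in the 3 IgG IP libraries (grey) and the 3 IGF2BP3 IP libraries (red), each panel with its own axis from 0. Grey lines join libraries of the same replicate number and black bars are means. *ITPR3* and *STIM1* are the panels in which the groups do not overlap.

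*ITPR3* had the largest difference of the 8 genes. The gene (ENSG00000096433.11) spans positions 33620365 to 33696574 of chromosome 6 (GRCh38, plus strand), and its canonical transcript has 58 exons. In the order of replicates 1 to 3, its counts were 81, 160 and 138 with IgG and 163, 259 and 210 with the IGF2BP3 antibody, an order kept for all values below. Normalized, these were 8.78, 10.7 and 11.1 CPM against 13.7, 19.6 and 17.1 CPM. In both groups replicate 1 was the lowest library, yet even the lowest IGF2BP3 IP library exceeded every one of the IgG IP. The means were 10.2 ± 1.26 CPM (SD, n = 3) and 16.8 ± 2.95 CPM (SD, n = 3), a 1.64-fold difference. On the log2 scale it was 0.71 with a standard error of 0.17 and a 95% interval of 0.32 to 1.10. The difference within same-numbered pairs was 0.64, 0.87 and 0.62 (log2), so it was positive in 3 of 3 pairs. The share of all tested RNAs that were positive in every pair is not given here.

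For *ITPR3* the size varied less between methods than the call did. With edgeR and condition as the only term, its Benjamini-Hochberg adjusted p was 0.094. With the replicate block in edgeR the log2 fold change was 0.72 and the adjusted p 0.00014, and with DESeq2 they were 0.70 and 0.027. Without IGF2BP3 IP replicate 1 the edgeR fit gave 0.83 and an adjusted p of 0.039, while without IGF2BP3 IP replicate 2 it gave 0.58 and 0.38. After a per-library correction for GC content the log2 fold change was 0.54 (edgeR, adjusted p = 0.27). After one for effective length, as implied by the deposited counts and FPKM, it was 0.55 (edgeR, adjusted p = 0.096). Both lie below the 1.5-fold minimum, which is 0.585 on this scale. The exons of *ITPR3* share 1025 bases with *UQCC2*, a gene for a mitochondrial assembly factor on the opposite strand, and whether the counting used strand is not stated in the sources used here. *UQCC2* held 1431 to 2218 counts per library, and its own log2 fold change was -0.37 with a standard error of 0.23.

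The other IP3 receptor genes had lower counts and no such separation. *ITPR1*, the receptor known from Purkinje neurons, had 33, 68 and 48 counts with IgG and 52, 71 and 57 with the IGF2BP3 antibody. This corresponds to 3.58, 4.56 and 3.87 CPM against 4.37, 5.36 and 4.63 CPM. The groups overlapped, although the difference was positive in 3 of 3 pairs, at 0.29, 0.23 and 0.26 on the log2 scale. Its log2 fold change was 0.25 with a 95% interval of -0.20 to 0.70. *ITPR2*, a receptor widely found outside neurons, had 1, 17 and 12 counts with IgG and 4, 12 and 11 with the IGF2BP3 antibody. With so few counts its interval ran from -1.57 to 1.29 around -0.14, and no difference was detectable at this depth. Of all counts on the 3 receptor genes, *ITPR3* took 70.4% (95% Wilson interval 61.5 to 78.0), 65.3% (59.2 to 71.0) and 69.7% (63.0 to 75.7) with IgG. With the IGF2BP3 antibody it took 74.4% (68.3 to 79.8), 75.7% (70.9 to 80) and 75.5% (70.2 to 80.2). All 3 IGF2BP3 IP shares lay above all IgG IP shares, but the intervals of single libraries overlapped, and intervals of this kind cover counting error only. These shares of counts are not corrected for transcript length. In TPM, the deposited length-corrected estimate, the *ITPR3* share was 39.6%, 37.5% and 42.2% with IgG. With the IGF2BP3 antibody it was 39.7%, 58.6% and 53.1%, so by TPM the groups overlapped.

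The letters TGGAC, a context in which IGF2BP proteins are known to bind methylated adenosine, were counted on the transcript's own strand. They are given in DNA letters. Among the canonical transcripts of 14479 tested RNAs, 89.4% hold TGGAC at least once, the median density is 1.08 per kb, and 3.01% of all 30-base windows hold it. The *ITPR3* transcript of 9079 bases holds 34 matches, 33 of them in the coding sequence, or 3.74 per kb. That density is at percentile 97.9 of the tested transcripts, and 9.74% of the 30-base windows of *ITPR3* hold a match. *ITPR1* holds 16 matches, all coding, at 1.61 per kb, and *ITPR2* holds 15 at 1.19 per kb. A high density was also found in *ATP2A3*, which had almost no counts in either IP, at 2.77 per kb and percentile 93.2. The GC content of the *ITPR3* transcript is 58.5%, above the median of 47.7% over the tested transcripts. To show how close together the matches of *ITPR3* can lie, its 30-base window with the most matches within 1 exon, the first from the 5′ end, is given with TGGAC in capitals. It is in coding exon 32 at chr6:33680416-33680445 on the plus strand of GRCh38.
ITPR3: TGGACgctctttgagaacttcacccTGGAC
The window holds 2 matches, 1 at each end. The shorter letters CATA, CATC and CATT, counted jointly as a second motif of the family, placed *ITPR3* lower, at percentile 72.2. They occur at 12.8 per kb in *ITPR3*, 12.2 in *ITPR1* and 12.7 in *ITPR2*, against a median of 10.8. A match is a description of the letters and not of a bound site.

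**Figure D2:**
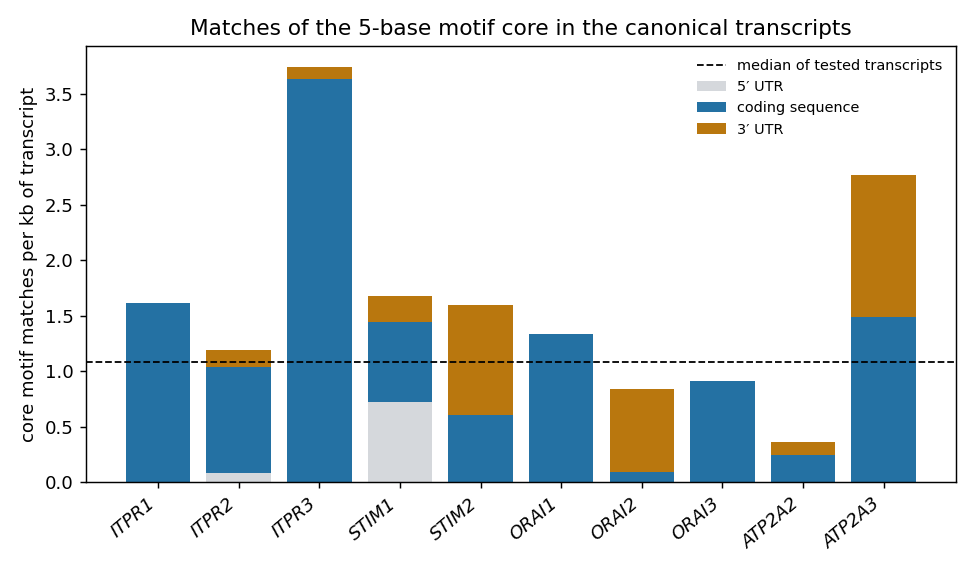
Matches of the 5-base motif core per kb of canonical transcript for the 10 genes, stacked by 5′ UTR, coding sequence and 3′ UTR, with the median of the tested transcripts as a dashed line. *ITPR3* stands highest at 3.74 per kb and *ATP2A2* lowest at 0.362 per kb.

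The STIM genes gave unlike values. *STIM1* (ENSG00000167323.12, positions 3854527 to 4093210 of chromosome 11, plus strand, 13 exons) encodes the sensor that reacts to marked store depletion. It had 118, 151 and 144 counts with IgG and 195, 240 and 195 with the IGF2BP3 antibody. Normalized, the values were 12.8, 10.1 and 11.6 CPM against 16.4, 18.1 and 15.9 CPM, so the groups did not overlap. The means were 11.5 ± 1.34 and 16.8 ± 1.19 CPM (SD, n = 3 each), a 1.47-fold difference just under the minimum for a call. The log2 fold change was 0.55 (standard error 0.14, 95% interval 0.24 to 0.87), with an adjusted p of 0.11 in edgeR and of 0.0025 with the replicate block in edgeR. In DESeq2 the adjusted p was 0.076 without the block and 0.073 with it, so the value under 0.05 was limited to the edgeR block fits. The pairs differed by 0.36, 0.84 and 0.45. After the GC correction the value was 0.41.

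*STIM2* (ENSG00000109689.19, positions 26857601 to 27025381 of chromosome 4, plus strand, 12 exons) encodes the sensor that responds to small falls in store calcium. Its counts were 559, 1026 and 791 with IgG and 736, 829 and 733 with the IGF2BP3 antibody. In CPM these were 60.6, 68.8 and 63.8 against 61.8, 62.6 and 59.6, with overlapping groups. The log2 fold change was -0.07 with a 95% interval of -0.27 to 0.13. Of the counts on both STIM genes *STIM1* took a larger share in each IGF2BP3 IP library than in any IgG IP library. The share was 17.4% (95% Wilson interval 14.8 to 20.5), 12.8% (11 to 14.9) and 15.4% (13.2 to 17.9) with IgG. With the IGF2BP3 antibody it was 20.9% (18.5 to 23.7), 22.5% (20.1 to 25.0) and 21.0% (18.5 to 23.8). The interval of IgG IP replicate 1 overlapped those of the IGF2BP3 IP libraries, and these intervals cover counting error only. The share needs no scaling between libraries, but it is not corrected for transcript length or GC content. It also comes from the same contrast by which the genes were chosen.

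The 2 STIM transcripts have nearly the same density of TGGAC, 1.68 per kb in *STIM1* with 7 matches and 1.60 per kb in *STIM2* with 8. Their placement and base composition differ. *STIM2* has 5 of its matches in the 3′ UTR and 3 in the coding sequence. *STIM1* has 1 in the 3′ UTR, 3 in the coding sequence and the rest in the 5′ UTR. The GC content is 56.4% in *STIM1* and 43.0% in *STIM2*, around a median of 47.7% over the tested transcripts. The windows chosen by the same rule are given with TGGAC in capitals. They lie at chr11:3855691-3855720 in the 5′ UTR of exon 1 of *STIM1* and at chr4:27023308-27023337 in the 3′ UTR of exon 12 of *STIM2*, both on the plus strand of GRCh38.
STIM1: tgcgtccgcctgcTGGACctgggcaccgcc
STIM2: acgaTGGACttacaagctttaaTGGACtcg
The *STIM2* window holds 2 matches and the *STIM1* window 1. Since no *STIM1* window within 1 exon holds more, its window is the first from the 5′ end. It does not show where the matches of *STIM1* lie as a whole.

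The ORAI genes form the pore of the entry channel. *ORAI1*, its main subunit, had 80, 113 and 79 counts with IgG and 114, 119 and 83 with the IGF2BP3 antibody, or 8.67, 7.57 and 6.37 CPM against 9.57, 8.99 and 6.75 CPM. The groups overlapped, although the difference was positive in every pair, at 0.14, 0.25 and 0.08 on the log2 scale. Its log2 fold change was 0.17 with a 95% interval of -0.27 to 0.60. Its transcript had the highest GC content of the 10, at 65.8%, and with the GC correction the value turned to -0.07. *ORAI2*, a subunit that can join mixed channels, had 153, 327 and 231 counts against 223, 282 and 307, or 16.6, 21.9 and 18.6 CPM against 18.7, 21.3 and 25.0 CPM. It also overlapped, with a log2 fold change of 0.18 (95% interval -0.17 to 0.53) and of 0.03 after the GC correction. *ORAI2* shares 588 exon bases with *ALKBH4*, a demethylase gene on the opposite strand, whose log2 fold change was 0.03. *ORAI3*, the third subunit, was near the limit of detection with 3, 3 and 5 counts with IgG and 0, 5 and 10 with the IGF2BP3 antibody. A count of 0 allows up to 3 counts in that library, so no difference between the IPs can be read for *ORAI3*.

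*ATP2A2*, the gene for the widely expressed pump SERCA2, was by far the most counted of the 10. The gene (ENSG00000174437.17) spans positions 110280756 to 110351093 of chromosome 12 (plus strand) and has 20 exons. It had 2203, 5049 and 4197 counts with IgG and 3855, 5692 and 4981 with the IGF2BP3 antibody. Normalized, these were 239, 338 and 339 CPM against 324, 430 and 405 CPM. Replicate 1 was again the lowest library of each group, and the groups overlapped because IGF2BP3 IP replicate 1 lay below IgG IP replicates 2 and 3. Within pairs the differences were 0.44, 0.35 and 0.26 on the log2 scale, positive in 3 of 3. Without the block the log2 fold change was 0.34 with a 95% interval of -0.01 to 0.69 (edgeR, adjusted p = 0.40). With the replicate block in edgeR it was 0.35 with an interval of 0.23 to 0.46 and an adjusted p of 7.0e-05, still below the fold change minimum. Without IgG IP replicate 1 it was 0.19, and without IGF2BP3 IP replicate 1 it was 0.45.

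The *ATP2A2* transcript is poor in TGGAC, with 3 matches in 8295 bases, or 0.362 per kb at percentile 14.6, and 0.944% of its 30-base windows hold one. The window chosen by the same rule, in coding exon 9, at chr12:110332597-110332626 on the plus strand of GRCh38, is shown beside those above with the match in capitals.
ATP2A2: atgttcattcTGGACagagtggaaggtgat
*ATP2A3*, the gene for SERCA3, had 3 counts in IgG IP replicate 1, 1 in IGF2BP3 IP replicate 2 and 0 in the other 4 libraries. Almost all SERCA counts of these 2 genes were therefore on *ATP2A2*.

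**Figure D3:**
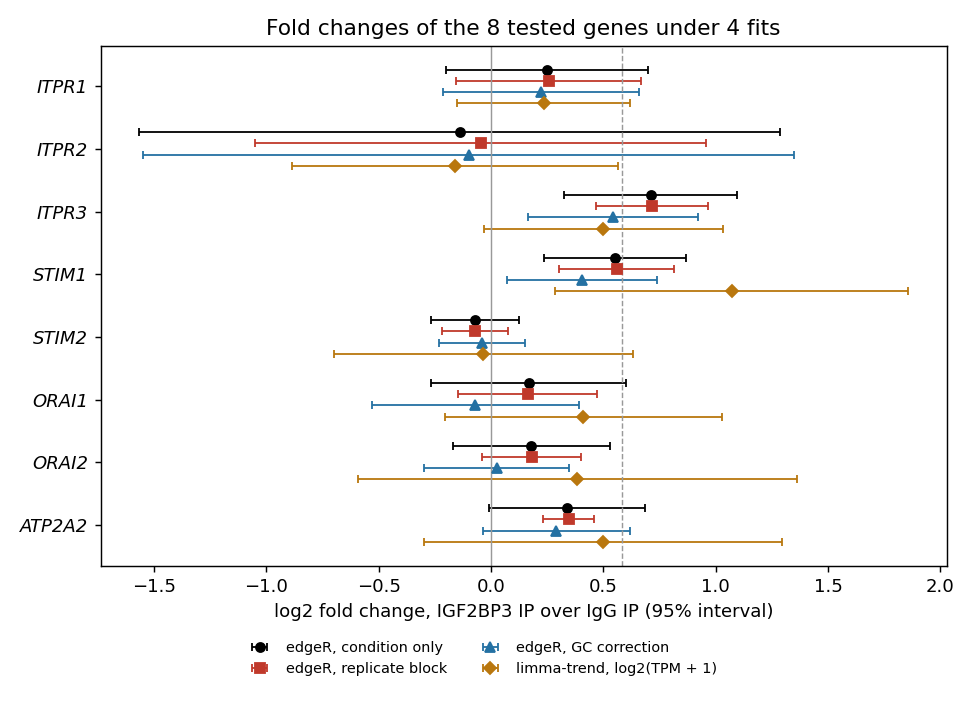
Log2 fold change of the IGF2BP3 IP over the IgG IP with its 95% interval for the 8 tested genes, under 4 fits. The dashed line marks the 1.5-fold minimum. For *ATP2A2* the interval narrows with the replicate block, and for *ORAI1* and *ORAI2* the GC correction moves the value to -0.07 and 0.03.

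Levels of different genes were compared only per length, as TPM, the deposited estimate of transcript abundance that corrects for length and depth. In the IgG IP *ATP2A2* stood highest at 40.3, 79.9 and 76.3 TPM, followed by *STIM2* at 17.2, 32.7 and 27.8 TPM. These 2 genes were clear of each other and of the rest. Next came *ORAI2* with a mean of 5.09 TPM, *ORAI1* with 4.18 and *STIM1* with 4.11, which overlapped and have no order among themselves. *ITPR1* (1.46), *ITPR3* (1.24), *ITPR2* (0.42) and *ORAI3* (0.407) followed, each overlapping its neighbour, and *ATP2A3* was listed at 0 in 2 of 3 libraries. Of the 9 neighbouring pairs in this order, 4 did not overlap. In the IgG IP the pump and *STIM2* mRNAs thus stood above the mRNAs of all IP3 receptors and ORAI channels.

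**Figure D4:**
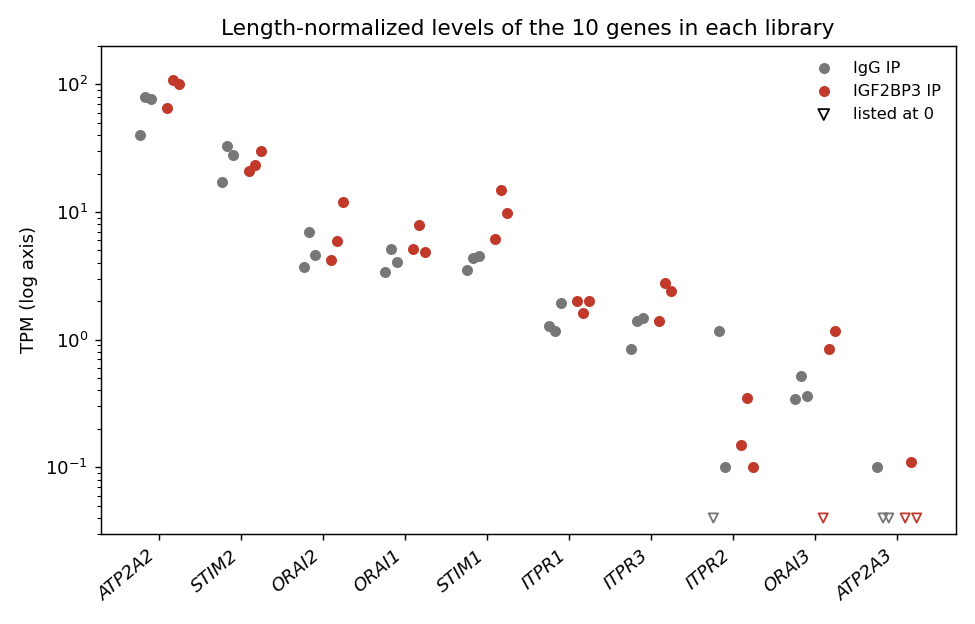
TPM of the 10 genes in each library on a log axis, ordered by the mean in the IgG IP, with grey points for the IgG IP and red points for the IGF2BP3 IP. Open triangles mark values listed at 0. *STIM1* is the gene whose TPM do not overlap between the IPs.

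In the IGF2BP3 IP *ATP2A2* (mean 91.2 TPM) and *STIM2* (24.7 TPM) kept the first places. *STIM1* was at 6.18, 14.8 and 9.75 TPM against 3.49, 4.32 and 4.51 TPM in the IgG IP. The log2 difference of *STIM1* on log2(TPM + 1) was 1.07, where the median of all tested RNAs was 0.11, while the counts gave 0.55. The TPM are estimates made over transcript isoforms, and the ratio of TPM to CPM for *STIM1* was 0.378, 0.819 and 0.615 in the IGF2BP3 IP against 0.273, 0.427 and 0.388 in the IgG IP. The effective length implied by counts and FPKM was 2659, 1599 and 2070 bases against 3116, 2825 and 3099 bases. It is a quotient of deposited values that largely restates this ratio, and not a measured transcript length. The TPM of *STIM1* thus differed more between the IPs than its counts, and the reason was not tested. For *ITPR3* the effective length was 8925 to 9726 bases over all libraries. Its TPM were 0.84, 1.39 and 1.48 against 1.41, 2.78 and 2.39, with overlapping groups. The difference was 0.50 on the log2(TPM + 1) scale and 0.76 on the log2(TPM + 0.1) scale, since these TPM are close to the larger pseudocount. *ITPR2* was listed at 1.16 TPM on 17 counts in IgG IP replicate 2 and at 0.1 TPM on 12 counts in IgG IP replicate 3, so its TPM are not a usable level.

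The other genes of the pathway were taken from 8 lists with 111 genes, of which 109 are in the table and 80 were tested. By edgeR 0 of the 80 were called in either direction, beside 1.16% and 0% of all tested RNAs. At an unadjusted p under 0.05, 8 of the 80 were higher and 5 lower. Of the 14507 tested RNAs, 1410 were higher and 449 lower at this threshold, or 12.8% in either direction. The libraries of the IGF2BP3 IP were all above those of the IgG IP for 10 of the 80 and all below them for 11, beside 12% and 8.69% of the tested RNAs. The median log2 fold change over the 80 genes was -0.02.

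Among RNAs for partners of the IP3 receptors, *AHCYL2*, a relative of the receptor inhibitor IRBIT, had 43, 86 and 90 counts with IgG and 126, 152 and 112 with the IGF2BP3 antibody. This is 4.66, 5.76 and 7.26 CPM against 10.6, 11.5 and 9.10 CPM, without overlap. Its log2 fold change was 0.81 (edgeR, adjusted p = 0.093), and it was called with the replicate block in edgeR (0.81, adjusted p = 0.0012) and with DESeq2 (0.80, adjusted p = 0.038). *ERP44*, an oxidoreductase that binds *ITPR1* protein from the lumen, had -0.29. For the other 10 tested genes of this list the values were closer to 0.

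Among the pumps and exchangers *SLC8A2*, a sodium-calcium exchanger of the plasma membrane, had 31, 65 and 69 counts against 88, 155 and 140. In CPM these were 3.36, 4.36 and 5.57 against 7.39, 11.7 and 11.4, without overlap. Its log2 fold change of 1.18 was the largest of the 80 (edgeR, adjusted p = 0.057). It was 1.21 with the replicate block in edgeR (adjusted p = 8.4e-06) and 1.18 with DESeq2 (adjusted p = 0.0026), so both of these fits called it. *ATP2B2*, a calcium pump of the plasma membrane, had 0.45 with overlapping groups.

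Of the genes that make or remove IP3, *PLCD3* and *PLCB1*, both phospholipases that release IP3, had the largest differences, at 0.78 (edgeR, adjusted p = 0.23) and -0.29. *PLCD3* rested on 14 to 44 counts per library. Among the genes that read out cytoplasmic calcium, *NFATC3*, a transcription factor set free by calcineurin, had 80.5, 82.2 and 89.1 CPM with IgG and 117, 124 and 119 CPM with the IGF2BP3 antibody. Its log2 fold change of 0.51 had an adjusted p of 0.022 in edgeR but was under the 1.5-fold minimum. *CALM3*, a calmodulin gene, followed with 0.43 (edgeR, adjusted p = 0.068).

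In the remaining lists the largest differences were smaller than in those above. Over all tested RNAs 48.9% had positive values. Of the 14 tested lumen proteins, which buffer calcium or fold proteins in the store, 12 had negative values and the median was -0.03, with *NUCB1* at 0.35 and *CASQ2* at 0.23 as the largest. Of the 11 genes of mitochondrial calcium uptake 10 had negative values and the median was -0.09. Among them was the uniporter *MCU* at -0.25, while the exchanger *LETM1* stood at 0.34. The other store channels were led by *MCOLN1* at 0.32 and *RYR1* at 0.25. Of the STIM and ORAI regulators 4 were tested, and *CRACR2B* at 0.18 and *CRACR2A* at -0.07 had the largest values. 

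**Figure D5:**
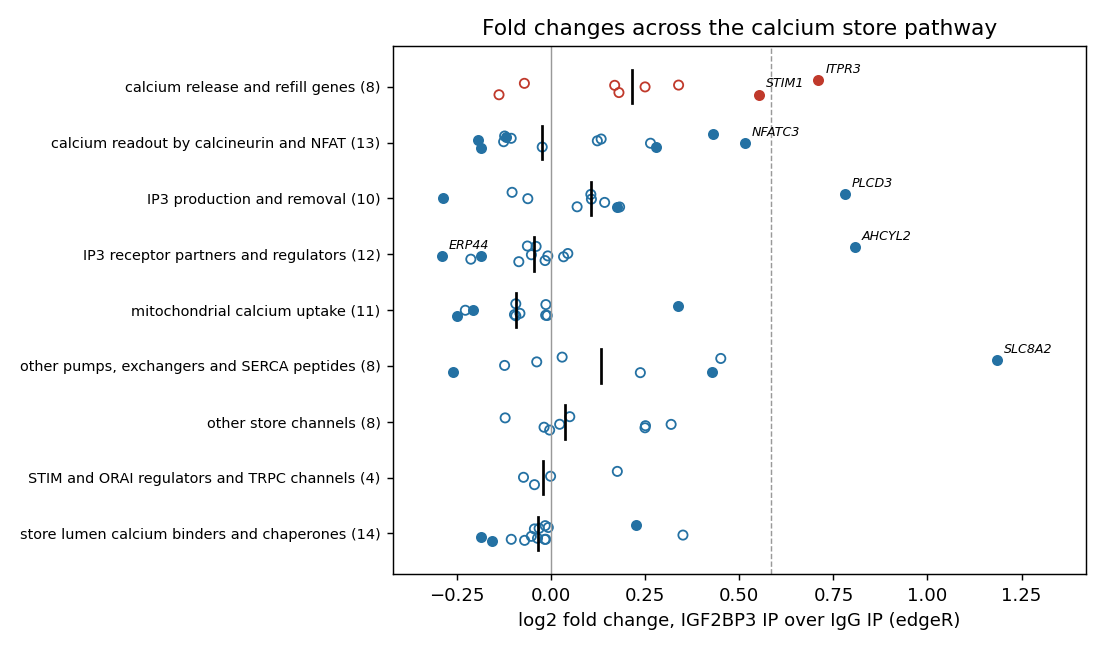
Log2 fold change (edgeR) of the tested genes of the calcium store pathway by list, with the number tested in parentheses. Filled points have no overlap between the IPs, black bars are medians and the dashed line is the 1.5-fold minimum. *SLC8A2*, *AHCYL2* and *PLCD3* lie beyond it on the right beside *ITPR3*.

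The RNAs whose profile over the 6 libraries was most like that of *ITPR3* were found by the Euclidean distance between log2 CPM centred on each gene's mean. The distance spans both IPs, so a fold change and replicate pattern near those of *ITPR3* follow from this selection. The nearest was *CPLX1* at a distance of 0.083, followed by *RAB3B* at 0.101 and *NHLH1* at 0.132. *CPLX1*, a complexin of the synaptic release machinery, had 6.29, 8.18 and 8.31 CPM with IgG and 10.1, 15.2 and 12.5 CPM with the IGF2BP3 antibody. *RAB3B*, a small GTPase of secretory vesicles, had 40.4, 46.5 and 47.2 CPM against 58.4, 88.1 and 73.4 CPM. Both share with *ITPR3* the lowest value in replicate 1 and the highest in IGF2BP3 IP replicate 2. *NHLH1*, a helix-loop-helix transcription factor, had a log2 fold change of 0.71, like *ITPR3*, and was called (edgeR, adjusted p = 0.032) at 54.1 to 107 CPM.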

How the data were processed

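The authors aligned paired-end reads to GRCh38 with STAR 2.7.9a and quantified them with RSEM and GENCODE annotation. Raw whole-number read counts for each gene were deposited, and so were TPM and FPKM values, which the authors took from RSEM. The program behind the counts and its use of strand are not given in the sources used here. Groups and replicate numbers came from the sample labels.

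All 60655 genes entered one fit in edgeR 4.0.16 under R 4.3.3 (filterByExpr, TMM, quasi-likelihood test), which modelled condition alone. RNAs were called at Benjamini-Hochberg adjusted p under 0.05 with a 1.5-fold or larger difference. Alternatives were DESeq2 1.42.0, limma 3.58.1 (voom on counts, trend on log2(TPM + 1) and log2(TPM + 0.1)), RLE, upper-quartile and total-count scaling, other filters and fold change minimums, per-library loess corrections (span 0.5) for GC content and effective length, a replicate block, and leaving out each library. Library totals of 9758759 to 14886414 counts set the precision, and the biological coefficient of variation was 13.4%.

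For the pairing, deviations from the group mean were correlated over genes between an IgG IP and an IGF2BP3 IP library. The same number gave 0.60, 0.32 and 0.26 (replicates 1, 2 and 3), so the numbers were taken as pairs in the block fits. Replicate 2 with 3 gave 0.31 and 0.30, so this check cannot tell how replicates 2 and 3 are matched. The main fit used no pairs.

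The genes and the pathway lists were chosen with earlier results of these data known. Named were the 10 genes, all called pathway genes and the 2 tested genes with the largest absolute log2 fold change per list, overlapping genes, and the 3 RNAs nearest in profile to the gene with the largest difference. Sequences and positions are from GENCODE version 44 canonical transcripts, matched for 60481 identifiers. Tested on simulated data over 14507 genes, edgeR recovered 97.0% of 200 changed genes with 14 false calls, and 98.0% with 22 under the replicate block. The sequence window of 1 other gene is not reported here.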

Additional observations from a re-analysis of the deposited data

How the results depend on the processing

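No alternative called a gene of the set other than *ITPR3*. The number called rose from 0 to 1 with DESeq2, with no filter beyond 1 count and with the replicate block in edgeR or DESeq2, and leaving out 1 library gave 0 to 1. It stayed at 0 in the other alternatives, both corrections with the block included. Of the pathway RNAs, 0 became 2 (*SLC8A2* and *AHCYL2*) with DESeq2, no filter, either replicate block and either correction combined with the block. It became 1 with the length correction (*SLC8A2*) and without a fold change minimum (*NFATC3*), and 0 to 1 on leaving out a library. Over all tested RNAs, 169 became 281 with DESeq2, 360 without a filter, 532 and 322 with the replicate block in edgeR and DESeq2, 436 and 310 with the block and the length or GC correction, 79 with the GC correction, 49 at a 2-fold minimum, 0 with limma-trend on both TPM scales (476 and 617 at least 1.5-fold higher at an unadjusted p under 0.05) and 0 to 244 on leaving out a library. The lowest came without IGF2BP3 IP replicate 2. *ITPR2*, at -0.14, turned to 0.12 with limma-voom and 0.15 with the DESeq2 replicate block and ran from -0.55 to 0.30 on leaving out a library. *ORAI1*, at 0.17, turned to -0.069 with the GC correction and -0.073 with that correction and the block. The cause was not tested. The other 6 tested genes kept their direction in every alternative, with ranges of 0.50 to 0.83 for *ITPR3*, 0.41 to 1.22 for *STIM1* and 0.19 to 0.51 for *ATP2A2*. Among the genes of the set, the replicate block changed no call other than that of *ITPR3*. The order of levels in the IgG IP had 4 clear neighbouring pairs in TPM, 4 in FPKM, 5 in counts per kilobase of effective length, and 4 to 5 on leaving out a library. At 1 to 17 counts for *ITPR2*, and fewer for *ORAI3* and *ATP2A3*, depth limits what can be seen.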
